A study of Mus musculus with 57 samples.

Results

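The sites described here were stretches of chromatin in the mouse brain cortex that carried acetylated lysine 27 of histone H3 (H3K27ac) away from the transcription start sites (TSSs) of a set of RefSeq transcripts, with no H3K27ac peak called there in the gastrocnemius, a calf muscle. They were found by merging overlapping H3K27ac peaks of the 9 cortex libraries on chromosomes 1 to 19 and keeping the regions with a peak in all 9, with no base covered by an H3K27ac peak of any of the 10 gastrocnemius libraries, and with both edges more than 5 kb from every mm10 RefSeq NM_ or NR_ TSS. Of 69410 merged cortex regions, 25348 had a peak in all 9 libraries, 12463 of these lay more than 5 kb from a TSS, and 3054 of those met no gastrocnemius H3K27ac peak. The sites were selected on measured H3K27ac in the 2 tissues, so H3K27ac values are given below as a description and were not tested. H3K4me3 and H3K27me3 took no part in the choice, although their libraries came from the same tissues of the same mice.

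The groups were the cortex (9 libraries per mark) and the gastrocnemius (10 libraries per mark) of PSAPP mice killed at 13 months of age. PSAPP animals carry APP and presenilin 1 transgenes with mutations of familial Alzheimer's disease (APP is the protein from which amyloid beta is cut, and presenilin 1 is part of the enzyme that cuts it), and amyloid plaques form in their brains. All animals carried these transgenes and were singly housed on a modified AIN-93 diet from 6 months of age, so no group without transgenes or on another diet entered any comparison. The study used mice of both sexes, but the labels do not give the sex of a library, and the sexes were not compared. Each library was made from frozen whole tissue, so a higher value may come from more cells of a type or from more signal per cell, and these cannot be told apart.

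H3K27ac is laid down by the acetyltransferases CBP and p300 at active enhancers and promoters. Enhancers are stretches of DNA, often far from the genes they act on, that bind transcription factors and raise transcription, and the enhancers in use differ between cell types more than the promoters do. H3K27me3, deposited by Polycomb repressive complex 2 at silent developmental genes, occupies the same lysine and cannot be on the same histone tail residue as the acetyl group, and H3K4me3 marks active promoters and is sparse at most enhancers.

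The sequences of 4 of the 10 sites with the highest H3K27ac are printed because the strongest sites were of unlike sequence. Each is 250 bases of the plus strand of mm10 (sequence from RefSeq, GRCm38.p6) around the centre of the stretch that peaks of all 9 cortex libraries covered. In the first pair, which had 1 and 2 CpG dinucleotides, capitals mark matches to the searched transcription factor motifs: the octamer ATGCAAAT (here on the other strand) and the E-box CAGCTG at Mir99ahg_1, chr16:77237875-77238124, and the NEUROD E-box CAGATGG at Gm31333_1, chr12:29083475-29083724.
Mir99ahg_1: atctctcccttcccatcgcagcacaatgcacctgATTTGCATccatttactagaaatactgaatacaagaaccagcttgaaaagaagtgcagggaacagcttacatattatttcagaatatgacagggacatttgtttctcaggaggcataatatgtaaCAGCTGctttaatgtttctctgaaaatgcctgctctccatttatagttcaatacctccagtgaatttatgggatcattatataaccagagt
Gm31333_1: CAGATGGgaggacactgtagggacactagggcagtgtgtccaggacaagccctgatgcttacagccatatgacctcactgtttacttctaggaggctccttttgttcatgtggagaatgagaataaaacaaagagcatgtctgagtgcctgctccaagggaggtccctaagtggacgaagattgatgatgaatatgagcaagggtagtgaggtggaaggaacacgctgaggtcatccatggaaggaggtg
In the other pair, which had 23 and 24 CpG dinucleotides and GC contents of 71.6% and 69.2%, capitals mark each CpG. They are Sgcd_1, chr11:47988475-47988724, and Zbtb43_1, chr2:33543975-33544224.
Sgcd_1: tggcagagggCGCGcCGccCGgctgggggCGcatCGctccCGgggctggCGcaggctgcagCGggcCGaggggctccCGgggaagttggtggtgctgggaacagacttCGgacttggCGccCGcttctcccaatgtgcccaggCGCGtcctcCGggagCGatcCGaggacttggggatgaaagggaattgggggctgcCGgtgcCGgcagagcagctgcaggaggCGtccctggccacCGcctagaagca
Zbtb43_1: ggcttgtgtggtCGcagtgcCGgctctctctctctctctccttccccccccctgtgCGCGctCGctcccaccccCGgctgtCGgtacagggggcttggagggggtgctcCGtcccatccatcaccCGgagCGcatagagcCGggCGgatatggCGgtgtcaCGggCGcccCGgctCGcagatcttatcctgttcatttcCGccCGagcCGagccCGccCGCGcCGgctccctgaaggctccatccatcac
By their centres, all 4 lay outside the RefSeq NM_ and NR_ transcripts, and other annotations were not used for this. Sites are named after the gene with the nearest TSS and a number along the chromosome, and the name says nothing of which gene a site acts on.

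The cortex-only distal sites had a median width of 7399 bp (interquartile range 4999 to 11199 bp) and together spanned 28.6 Mb. By their centres, set against the same RefSeq transcripts, 1896 (62.1%) lay in introns, 79 (2.59%) in exons and 1079 (35.3%) between genes. Their median distance to the nearest TSS was 56.6 kb, against 25.2 kb for the 6512 distal sites with H3K27ac in all 9 cortex and all 10 gastrocnemius libraries and 42.4 kb for the 1868 distal sites found by the mirrored rule in gastrocnemius only. More than 100 kb from a TSS lay 922 of the cortex-only sites (30.2%), 8.60% of the sites of both tissues and 23.4% of the gastrocnemius-only sites.

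H3K27ac levels are given as RPM per kb, the fragments in a site scaled to 1000000 fragments in autosomal peaks of the library and divided by the width of the site, with the fragments of a peak that ran past a site shared by length. The median site held 10.9 RPM and 1.56 RPM per kb, and over all sites the level ran from 0.566 to 4.64 RPM per kb. In each cortex library between 4.29% and 5.10% of all peak fragments fell in these sites (4.71% ± 0.267, SD, n = 9). The coefficient of variation of a site's RPM between the 9 libraries had a median of 25.8%. Regions just outside the rule were weaker where the number of cortex libraries decided: the 1937 regions that met all else but had a peak in 8 of 9 libraries had a median of 5.37 RPM and 1.17 RPM per kb, and 1465 of them (75.6%) were missing only in cortex 9, whose H3K27ac library held 3903965 peak fragments against 14279570 to 20972632 in the other 8. In the 1937 regions the library without a peak enters the mean as 0, so part of their lower level follows from the measure. The 464 regions with an H3K27ac peak in 1 gastrocnemius library had a median of 11.0 RPM and 1.53 RPM per kb. The 39 sites whose nearest TSS lay 5 to 6 kb away had a median of 10.8 RPM and 1.63 RPM per kb. The 32 regions left out with a TSS 4 to 5 kb away were narrower (median 5799 against 7599 bp), with 7.89 RPM, which is lower, and 1.73 RPM per kb, which is higher.

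The highest mean H3K27ac was at Mir99ahg_1 (chr16:77235001-77241799, mm10), 87.5 kb from the TSS of Mir99ahg, the host transcript of the microRNAs miR-99a and let-7c. Its lowest, median and highest cortex libraries were at 3.61, 4.81 and 5.604 RPM per kb. It carried H3K4me3 in all 9 cortex and in 9 of the 10 gastrocnemius libraries and H3K27me3 in none. Next came Gm31333_1 (chr12:29082001-29085199), with 3.87, 4.58 and 5.44 RPM per kb as its lowest, median and highest values, and H3K27me3 in 8 gastrocnemius and no cortex libraries. Elmo1_6 (chr13:20536201-20540799), in an intron of Elmo1, an activator of Rac signalling, ranged from 3.96 to 5.74 RPM per kb, and neither H3K4me3 nor H3K27me3 was called there in any library. Pcdh9_2 (chr14:93700201-93702799), in an intron of the protocadherin gene Pcdh9, ranged from 3.12 to 5.42 RPM per kb and had H3K4me3 in all 9 cortex and in no gastrocnemius libraries. Mroh4_1 (chr15:74553001-74630399) was the widest of the 10, at 77399 bp, with 3.78 to 4.90 RPM per kb.

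At 4 of the 10 strongest sites H3K27me3 peaks were called in all 9 cortex libraries beside the H3K27ac peaks, which held for 192 of all 3054 sites (6.29%). Sgcd_1 (chr11:47986001-47990199, 3.25 to 5.40 RPM per kb) carried H3K4me3 and H3K27me3 in every library of both tissues. Gm12789_1 (chr4:102086401-102090599, 3.35 to 5.01), Zbtb43_1 (chr2:33541401-33551199, 3.49 to 5.29) and Mroh4_1 likewise had H3K4me3 and H3K27me3 in all 9 cortex libraries and H3K27me3 in all 10 gastrocnemius libraries. Sipa1l1_1 (chr12:82064001-82082999, 3.70 to 4.84) and Gm11728_2 (chr11:117024601-117034399, 3.02 to 5.70) had H3K27me3 in all 10 gastrocnemius libraries too, but in 0 and 3 of the 9 cortex libraries. Of the 10 strongest sites, 6 thus carried H3K27me3 in every gastrocnemius library, against 26.0% of all sites.

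**Figure D1:**
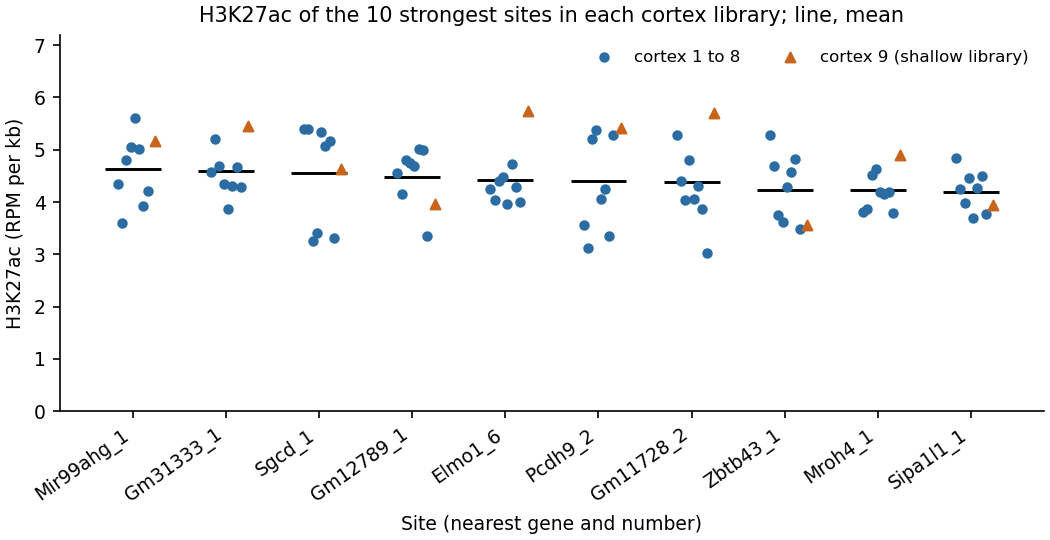
H3K27ac level (RPM per kb, vertical axis from 0) of the 10 strongest cortex-only distal sites in each of the 9 cortex libraries, with the shallow library cortex 9 as triangles and the mean as a line. Means run from 4.64 at Mir99ahg_1 to 4.19 at Sipa1l1_1, and the libraries' values at a site overlap those at the other sites.

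H3K27me3 stood at these sites in muscle and far less often in cortex. In the cortex libraries the lowest, median and highest share of the 3054 sites touched by an H3K27me3 peak was 14.0%, 15.7% and 18.4%. In the gastrocnemius libraries it was 42.0%, 51.0% and 64.5%. No gastrocnemius library came down to the highest cortex library. The means were 15.7% ± 1.72 (SD, n = 9) and 50.3% ± 6.95 (SD, n = 10), a difference of -34.51 percentage points (exact permutation test over the library labels, two-sided, p = 1.08e-05, the smallest that 92378 relabellings allow; 3.25e-05 after Benjamini-Hochberg adjustment over 12 tests). H3K27me3 peaks covered 8.68% ± 1.35 of the sites' base pairs in cortex and 39.8% ± 9.66 in gastrocnemius, while over the autosomes they covered 10.3% ± 1.32 and 10.6% ± 3.83. The highest gastrocnemius value was that of library 5, which held 18236388 H3K27me3 peak fragments against 2994110 to 7544243 in the others. With equally many top-scoring peaks per library the difference was -32.94 percentage points. Some libraries (cortex 8 and 9, gastrocnemius 5, 6, 9 and 10) carry an extra number in their file names, whose meaning the labels do not give. Among the 13 without one the difference was -30.66 points (exact permutation test, p = 0.000583, the smallest that 7 against 6 libraries allow).

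The other distal sites carried H3K27me3 in muscle less often. The sets were chosen on H3K27ac in these tissues, and H3K27me3 occupies the same lysine, so the tests here and above are not independent of that choice. In gastrocnemius, 11.7% ± 1.86 of the sites of both tissues and 8.36% ± 2.31 of the gastrocnemius-only sites had H3K27me3, and in each of the 10 libraries the cortex-only sites exceeded both sets (exact sign-flip permutation test within libraries, p = 0.00195 each, the smallest that 10 libraries allow, adjusted 0.00293). In cortex, the cortex-only sites at 15.7% stood 2.64 percentage points above the sites of both tissues (13.1% ± 1.10), in 9 of 9 libraries, and below the gastrocnemius-only sites (35.3% ± 3.48, a difference of -19.53 points), again in 9 of 9 (exact sign-flip permutation test, p = 0.00391 each, the smallest that 9 libraries allow, adjusted 0.00391). At the gastrocnemius-only sites the lowest cortex library (29.3%) stood above the highest gastrocnemius library (12.7%), the opposite order to that at the cortex-only sites.

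**Figure D2:**
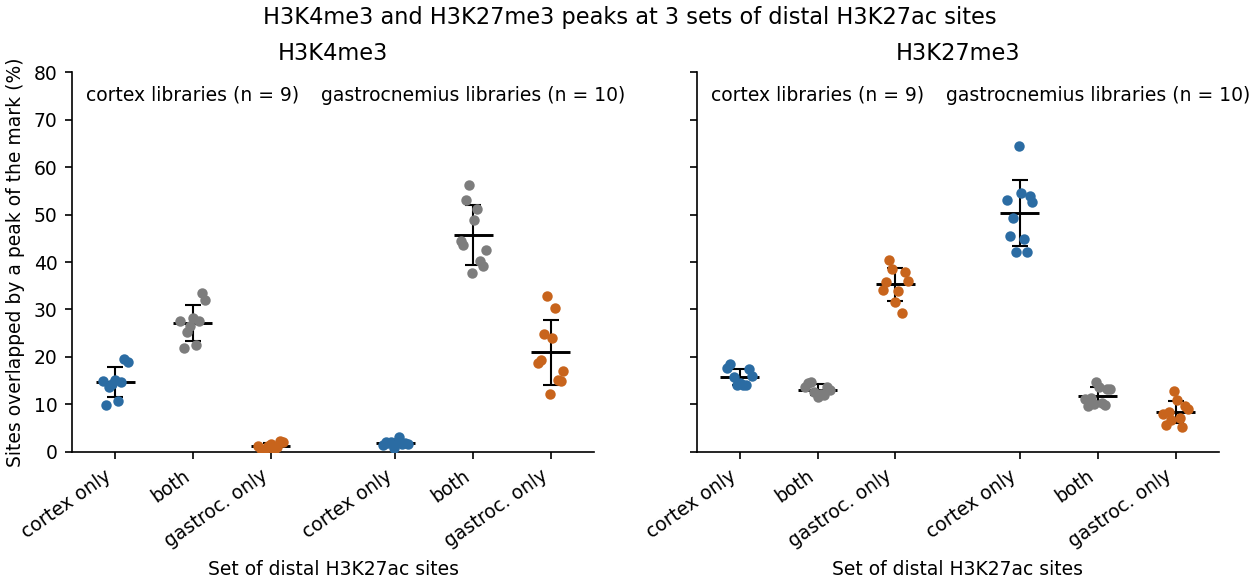
Share of sites (%, vertical axis) touched by an H3K4me3 peak (left) or an H3K27me3 peak (right) in each library, for the 3054 cortex-only, 6512 both-tissue and 1868 gastrocnemius-only distal H3K27ac sites, with points for libraries and bars for mean and SD. The cortex-only sites reach 42.0% to 64.5% for H3K27me3 in the gastrocnemius libraries, above every other set in either tissue.

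Among distal regions with H3K27ac in all 9 cortex libraries, the share with H3K27me3 in gastrocnemius fell with the number of gastrocnemius libraries that had H3K27ac there. It was 50.3% at the 3054 sites with none, 36.1% ± 4.11 at 464 regions with 1, 32.1% ± 4.44 at 1049 regions with 2 to 5, 24.1% ± 3.18 at 1384 regions with 6 to 9, and 11.7% at the 6512 with all 10 (SD, n = 10 libraries). The H3K27me3 share in cortex was 15.7%, 17.8%, 15.5%, 14.5% and 13.1% in the same classes. Since the H3K27ac classes come from the same animals, this order is given as a description.

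**Figure D3:**
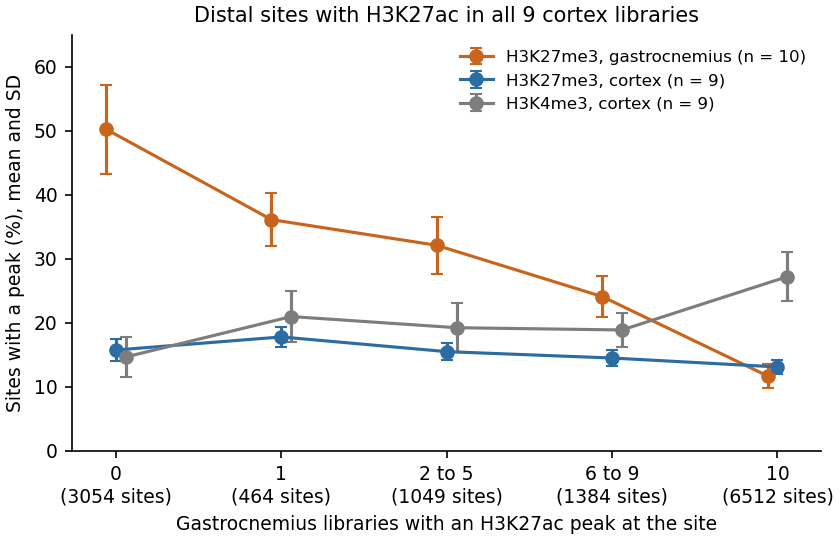
Share of sites with a peak (%, mean and SD over libraries) against the number of gastrocnemius libraries with H3K27ac, for distal regions with H3K27ac in all 9 cortex libraries. Gastrocnemius H3K27me3 drops from 50.3% to 11.7%, while cortex H3K27me3 stays between 13.1% and 17.8% and cortex H3K4me3 (grey) runs from 14.7% to 27.2%.

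The cortex-only sites were not alike in this mark. H3K27me3 was called in all 10 gastrocnemius libraries at 793 (26.0%), in 1 to 9 at 1406 (46.0%) and in none at 855 (28.0%). The sites with the mark in all 10 were wider (median 9799 bp against 6199 bp for those with none), closer to a TSS (42.7 against 65.3 kb) and more often between genes (42.4% against 24.6%), and their 1 kb centres were richer in GC (median 50.2% against 44.2%). Median H3K27ac in cortex was nearly the same, 1.62 against 1.55 RPM per kb. Wider sites have more bases at which a peak can touch them, and the part of width in these counts was not tested. H3K27me3 was present in all 10 gastrocnemius and all 9 cortex libraries at 167 sites and in all 10 gastrocnemius and no cortex libraries at 248. At only 1 site was it in all 9 cortex and no gastrocnemius libraries.

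H3K4me3 was found at a minority of the sites, and more often in cortex than in gastrocnemius. In the cortex libraries 9.89%, 14.8% and 19.5% of the sites (lowest, median, highest) were touched by an H3K4me3 peak, and in the gastrocnemius libraries 0.851%, 1.85% and 3.11%. The tissues did not overlap. The means were 14.7% ± 3.18 (SD, n = 9) and 1.84% ± 0.580 (SD, n = 10), a difference of 12.82 percentage points (exact permutation test, two-sided, p = 1.08e-05, adjusted 3.25e-05). The cortex libraries with the most H3K4me3 fragments, 8 and 9 with 18622389 and 16880992, also had the highest shares, 19.5% and 18.96%, and both carry the extra number in their file names. Among the libraries without that number the difference was 11.35 points (exact permutation test, p = 0.000583). Without the 25% of peaks with the lowest score in each library the difference was 5.43 percentage points. H3K4me3 peaks covered 2.67% ± 0.522 of the sites' base pairs in cortex.

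The sites of both tissues were wider (median 9499 bp) and held a GENCODE vM21 TSS inside more often, 33.6% against 15.4% of the cortex-only and 14.9% of the gastrocnemius-only sites, and the part of either in the following differences was not tested. At the sites of both tissues H3K4me3 was more frequent, 27.2% ± 3.82 in cortex and 45.7% ± 6.33 in gastrocnemius, and the cortex-only sites were lower in every library of either tissue (exact sign-flip permutation test, p = 0.00391 and 0.00195, adjusted 0.00391 and 0.00293). Compared with the gastrocnemius-only sites, the cortex-only sites were higher in cortex (14.7% against 1.22% ± 0.653) and lower in gastrocnemius (1.84% against 20.9% ± 6.81), again in every library (exact sign-flip permutation test, p = 0.00391 and 0.00195). Where a peak had to cover at least 50% of a site, the difference from the sites of both tissues was -0.71 points in cortex and -10.12 in gastrocnemius, and that from the gastrocnemius-only sites 2.41 and -1.08, with the same p.

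H3K4me3 was called in all 9 cortex libraries at 257 sites (8.42%), in no cortex library at 2346 (76.8%), and in all 9 cortex and no gastrocnemius libraries at 170. The 257 were richer in CpG: their 1 kb centres held a median of 22 CpG (interquartile range 15 to 29), against 11 (8 to 15) where no cortex library had the mark and 38 (13 to 69) in 1 kb windows centred on RefSeq TSSs. A TSS of GENCODE vM21, an annotation which lists transcripts that the NM_ and NR_ set used for the rule does not, lay inside 469 of the 3054 sites (15.4%), so distance from a TSS holds for the RefSeq set alone. It lay inside 93 of the 257 (36.2%) and inside 306 of the 2346 (13.0%). H3K27me3 in all 10 gastrocnemius libraries occurred at 102 of the 257, and at 793 of all 3054 sites. Neither H3K4me3 nor H3K27me3 was called in any of the 19 libraries per mark at 661 sites (21.6%).

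The cortex-only sites also differed somewhat in sequence from the other sets, which is given with no test. In the 2931 sites with a stretch covered in all 9 libraries, the median GC content of the central 1 kb was 47.0%, against 48.8% at sites of both tissues and 44.4% at gastrocnemius-only sites. The octamer ATGCAAAT, bound by POU factors, occurred on either strand in 7.81% of them, in 5.07% of the sites of both tissues, in 5.14% of the gastrocnemius-only sites and in 4.01% of the TSS windows. The motif GTTGCCA of RFX factors occurred in 14.4%, 11.8%, 10.2% and 11.0% in the same order, and the NEUROD E-box CAGATGG in 25.7%, 24.6%, 19.4% and 16.7%. The MEF2 motif was found in 2.39%, 2.85%, 7.43% and 1.30%, lowest among the distal sets at the cortex-only sites. The AP-1 motif TGANTCA, present in 32.3%, and the TEAD motif CATTCCA, in 17.9%, lay between the both-tissue sites (28.7% and 16.1%) and the gastrocnemius-only sites (34.04% and 20.3%). The remaining motifs are given in the order cortex-only, both-tissue and gastrocnemius-only sites. Less frequent at the cortex-only than at the both-tissue sites were the E-box CAGCTG (48.5%, 52.3%, 46.6%), PU.1 GAGGAAGT (6.65%, 7.84%, 7.38%), ROR TAGGTCA (9.08%, 9.39%, 9.84%), CRE TGACGTCA (0.955%, 1.08%, 0.671%) and EGR GCGTGGGCG (0.205%, 0.38%, 0.112%). More frequent were SOX ACAATGG (13.5%, 12.5%, 14.5%), NFI CTTGGCA (22.8%, 22.3%, 24.4%) and T-box AGGTGTGA (4.95%, 4.12%, 4.42%). In central windows of 300 bp TEAD was instead lowest at the cortex-only sites (5.46%, 5.54%, 6.596%), SOX was below the both-tissue sites (3.86% against 3.91%), EGR was slightly above them (0.102% against 0.0950%), the E-box CAGCTG was below the gastrocnemius-only sites (18.4% against 18.7%) and the NEUROD E-box was at 8.39% and 8.38%. The octamer was again highest at the cortex-only sites (2.56%, 1.47%, 1.45%). A match is a run of letters, not a shown binding site, and base composition differs between the sets.

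The nearest TSS of the 3054 sites belonged to 1615 genes, which is 6.47% of the 24963 autosomal RefSeq genes. Of these, 1005 were nearest to 1 site and 104 to 5 or more, and these 104 took 767 sites. Per-gene counts of H3K27me3 below can be read against all 3054 sites, of which 2199 (72.0%) had it in at least 1 gastrocnemius library, 26.0% in all 10 and 28.0% in none. Ntm, which encodes the neuronal adhesion molecule neurotrimin, was nearest to the most sites (19), and 18 of them had H3K27me3 in at least 1 gastrocnemius library. It was followed by Spock1, a secreted proteoglycan of the brain, with 18, of which 11 had H3K27me3 in all 10 gastrocnemius libraries, and by Tmem178b and Dlg2 with 16 each. Dlg2 encodes the postsynaptic scaffold PSD-93, and 5 of its sites had H3K4me3 in all 9 cortex libraries. Anks1b and Celf2, which encode a synaptic adaptor and an RNA-binding splicing regulator, had 14 each, and 13 of the 14 at Celf2 had no H3K27me3 in any gastrocnemius library. Grin2a, a subunit of the NMDA receptor, and the transcript 4930430F21Rik had 13 each, and Ptprn2 and Magi2 had 12 each. Nearest genes were long, with a median of 40.8 kb against 13.7 kb for all autosomal genes, and a long gene has more room for sites that are nearest to it.

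Genes of synaptic transmission were often nearest to a site. Among 29 genes of glutamate and GABA receptors, 17 (58.6%) were nearest to at least 1 cortex-only site, with 55 sites in all, against 6.47% of all genes. These were led by Grin2a with 13, Grin2b, another NMDA receptor subunit, with 8, and Gria1, an AMPA receptor subunit, and Grik4, a kainate receptor subunit, with 5 each. Of the 55 sites, 18 (32.7%) had H3K27me3 in all 10 gastrocnemius libraries and 15 had it in none, against 26.0% and 28.0% of all 3054 sites. The genes of the list differed: all 8 sites of Grin2b and all 13 of Grin2a had H3K27me3 in at least 1 gastrocnemius library, and all 5 of Grik4 had it in all 10. By contrast, the sites of Gabrb2 (3) and Gria2 (2), subunits of the GABA-A and AMPA receptors, had none. Of 22 synapse genes, 13 (59.1%) were nearest to 53 sites, led by Dlg2 with 16, Nrxn3, a presynaptic adhesion molecule, with 9, and Syt1 and Shank2, a vesicle calcium sensor and a postsynaptic scaffold, with 4 each. Of the 53 sites, 6 (11.3%) had H3K27me3 in all 10 gastrocnemius libraries and 22 had it in none. All 4 sites of Shank2 had H3K27me3 in all 10 gastrocnemius libraries, and the 4 of Syt1 had it in none. The receptor and synapse genes are long, with median lengths of 240.1 and 124.5 kb, and the part of length in these counts was not tested. Sites of both tissues were nearest to 3.45% of the receptor genes and 22.7% of the synapse genes. No gene of either list was nearest to a gastrocnemius-only site, a share that is 5.25% over all genes, so few would be among lists of this size in any case.

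The lists of cell type markers hold shorter genes, with median lengths from 11.7 kb (astrocyte) to 41.6 kb (endothelium and pericyte), and their shares were not tested against those of the receptor and synapse lists. In the list of cortical excitatory neurons 6 of 21 genes (28.6%) were nearest to 8 sites, with 3 at Fezf2, a factor of deep-layer projection neurons, and 1 each at Rorb, Bcl11b, Neurod1, Lmo4 and Emx1, and 4 of the 8 had H3K27me3 in all 10 gastrocnemius libraries. In the oligodendrocyte list 5 of 20 (25%) had 9 sites, led by the myelin genes Mobp and Ugt8a with 3 each, and 6 of the 9 had H3K27me3 in all 10 gastrocnemius libraries, against 26.0% of all sites. In the astrocyte list 3 of 16 (18.8%) had 7, with 3 each at the glutamate transporter genes Slc1a2 and Slc1a3 and 1 at Glul, glutamine synthetase, and 0 of the 7 had H3K27me3 in all 10 gastrocnemius libraries. The microglia list had Cx3cr1, the fractalkine receptor, and Sall1, among 17 genes, with 1 site each. The interneuron list had Cck alone among 18, and the list of endothelium and pericytes had Cdh5 alone among 10. These last 3 lists had shares of 11.8%, 5.56% and 10%, beside 6.47% of all genes. The 6512 sites of both tissues had 4007 nearest genes. They were nearest to 23.8% of excitatory neuron, 15% of oligodendrocyte and 25% of astrocyte genes. For the microglia, interneuron and endothelium lists their shares were 0%, 11.1% and 20%. Gastrocnemius-only sites had 9.52%, 0% and 6.25%, then 0%, 5.56% and 30%, in the same order, beside 5.25% of all genes. None of 11 activity-regulated and none of 24 skeletal muscle genes was nearest to a cortex-only site. At the 6.47% of all genes, few would be among lists of this size in any case. Their median lengths are 5.62 and 15.4 kb, against 13.7 kb for all autosomal genes. As a check of the labels, promoter H3K4me3 at Neurod6 and Gad1 was called in all 9 cortex and no gastrocnemius libraries, that at Ckm and Myh4 in no cortex and all 10 gastrocnemius libraries, and that at Acta1 in 1 cortex and all 10 gastrocnemius libraries. Slc17a7, a marker of excitatory neurons, had promoter H3K4me3 in all 19 and did not tell the tissues apart. It was not alone. All 10 gastrocnemius libraries had promoter H3K4me3 at 16 of 21 excitatory neuron and 9 of 18 interneuron genes. All 9 cortex libraries had it at 4 of 24 skeletal muscle genes.

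**Figure D4:**
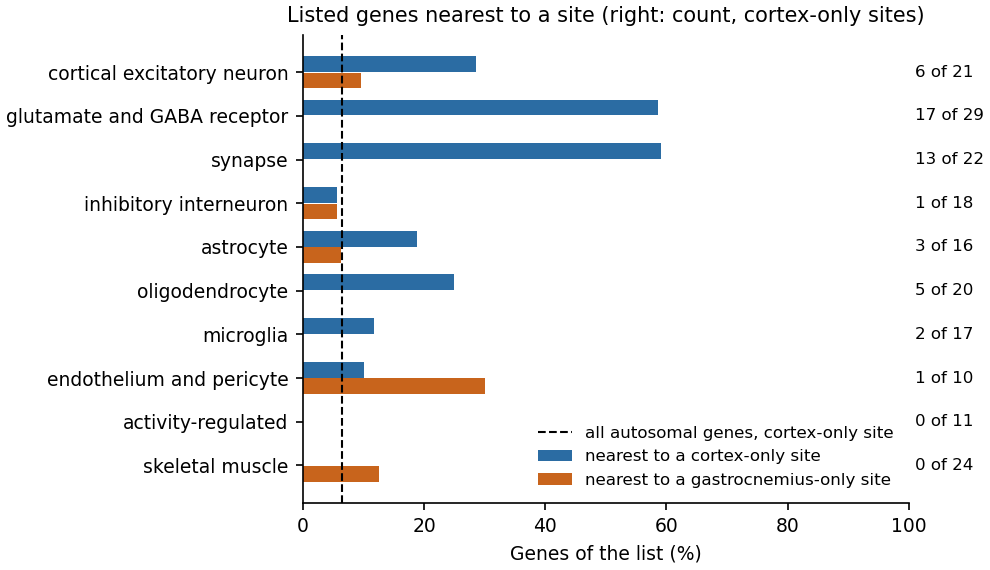
Share of the genes in each list (%, horizontal axis from 0) that are nearest to a cortex-only site (blue) or a gastrocnemius-only site (orange), with the count for cortex-only sites at the right and the 6.47% of all autosomal genes that are nearest to a cortex-only site as a dashed line (5.25% for gastrocnemius-only sites, not drawn). The receptor list (17 of 29) and the synapse list (13 of 22) stand highest. The activity-regulated and skeletal muscle lists have 0, and at 6.47% few of their 11 and 24 genes would be counted in any case.

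Promoters of the nearest genes carried H3K4me3 more often and H3K27me3 less often in cortex than in gastrocnemius. An H3K4me3 peak lay within 1 kb of a TSS of 69.8%, 71.0% and 72.0% of the 1615 genes in the lowest, median and highest cortex library and of 60.1%, 62.0% and 64.2% in the gastrocnemius libraries. The means were 71.0% ± 0.775 (n = 9) and 62.1% ± 1.21 (n = 10), a difference of 8.83 percentage points (exact permutation test, p = 1.08e-05, adjusted 3.25e-05). Over all 24963 genes the means were 61.4% and 60.6%, 0.787 points apart. H3K27me3 was at the promoters of 28.4% ± 1.81 of the nearest genes in cortex (25.8% to 31.3%) and 50.8% ± 4.26 in gastrocnemius (46.3% to 59.9%), a difference of -22.43 points (exact permutation test, p = 1.08e-05, adjusted 3.25e-05). Over all genes it was 23.2% and 24.6%.

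In promoters that separated the tissues fully, 92 nearest genes (5.70%) had H3K4me3 in all 9 cortex and no gastrocnemius libraries, against 1.85% of all genes, and 7 (0.433%) had the reverse, against 1.2%. H3K27me3 in all 10 gastrocnemius and no cortex libraries was found at 109 (6.75%), against 1.37%, and the reverse at 1 (0.0619%), against 0.905%. H3K4me3 was in all 19 libraries at 907 (56.2%), against 55% of all genes. Among genes nearest to sites with H3K27me3 in all 10 gastrocnemius libraries, 276 of 495 (55.8%) had promoter H3K27me3 in all 10 as well, against 100 of 563 (17.8%) of those nearest to sites with the mark in no gastrocnemius library and 13.4% of all genes. A gene with sites of both kinds, such as Ntm, counts in both groups. The part of site width and of distance to a TSS in this contrast was not tested.

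Fragment counts could be compared at promoter H3K4me3 sites that all 19 libraries called, 11469 in all and 969 at 915 of the nearest genes. With edgeR's quasi-likelihood test at a Benjamini-Hochberg adjusted p under 0.1, 664 of the 969 (68.5%) were higher in cortex, against 39.6% of all sites tested, and 174 (18%) were lower, against 40.4%. The median log2 fold change of cortex over gastrocnemius was 0.49 for the 969 sites, -0.02 for the other 10500 and 0.00 for all. The groups of libraries did not overlap at 626 of the 969 sites (64.6%), and at 44.1% of all sites.

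**Figure D5:**
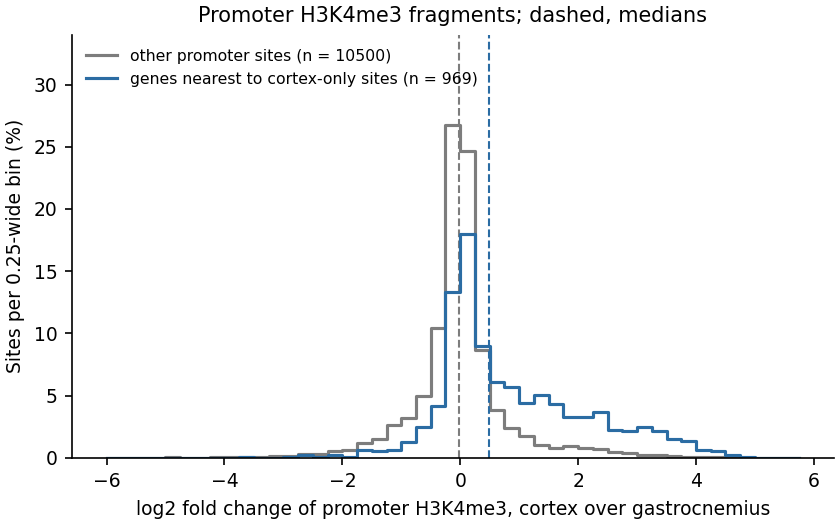
Distribution of the log2 fold change of promoter H3K4me3 fragments, cortex over gastrocnemius (horizontal axis), for the 969 sites at genes nearest to cortex-only distal sites and for the other 10500, as the share of sites per bin (%), with medians dashed. The median is 0.49 for the former and -0.02 for the latter.

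The largest increases among sites whose groups did not overlap are given as CPM, the fragments of a site scaled to 1000000 in the tested sites after TMM scaling. At Cacna1e, a voltage-gated calcium channel of neurons, the lowest, median and highest cortex libraries were at 158.1, 173.5 and 179.4 CPM and the gastrocnemius libraries at 3.89, 5.82 and 8.94, a log2 fold change of 4.84 ± 0.10 (SE, adjusted p = 1.01e-21, edgeR). Syt1 had 152.9 to 175.8 CPM in cortex and 4.53 to 10.2 in gastrocnemius (4.64 ± 0.10, adjusted p = 1.5e-21, edgeR). Amer2 had 193.5 to 211.9 against 6.10 to 11.8 CPM, and the site shared by Adgrb3, an adhesion receptor of synapses, and Gm9884 had 172.6 to 200.9 against 4.75 to 11.98 CPM. Ptn, the growth factor pleiotrophin, had 104.7 to 119.4 against 3.77 to 7.90 CPM. At each of these 5 sites the lowest cortex library stood far above the highest gastrocnemius library.

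Some promoters near cortex-only sites had less H3K4me3 in cortex. The largest decrease was at Gask1b, with 5.54, 8.72 and 12.01 CPM as the lowest, median and highest cortex values and 85.0, 103.0 and 115.5 in gastrocnemius, a log2 fold change of -3.52 ± 0.10 (SE, adjusted p = 4.05e-19, edgeR). It was followed by Tcim (-2.85), Mab21l1 (-2.71), the site shared by Cdh5, the endothelial cadherin, and Gm29682 (-2.66), and Nfatc2, a calcium-regulated transcription factor (-2.46). The adjusted p of these 4 ran from 9.74e-18 for Tcim to 6.3e-13 for Mab21l1 (edgeR). Cdh5 marks endothelium, which both tissues hold in unknown shares, and the cells that gave its signal cannot be told apart.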

How the data were processed

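ChIP-seq for H3K4me3, H3K27ac and H3K27me3 was deposited for 57 libraries of PSAPP cortex and gastrocnemius. Alignment by the authors used bwa and mm10, unmapped, poorly mapped and duplicate reads were dropped with SAMtools, and epic2 called peaks library by library (windows of 200 bp, gaps of 2, or 3 for H3K27me3, FDR 0.05). Its version was not found in the sources. No input library was used here. The deposited count of a peak is its number of fragments, not normalized. The deposited score of a peak is that of the authors' epic2 run, used here only to rank peaks. Reads outside peaks were not analysed here.

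Peaks on chromosomes 1 to 19 were merged and set against 43783 RefSeq NM_ and NR_ transcripts, and a peak touching at least 1 bp counted. Per library, total peak fragments ranged from 9025744 to 18622389 for H3K4me3, from 3903965 to 27042958 for H3K27ac and from 2994110 to 18236388 for H3K27me3. Replicates are tissues of separate mice. Groups came from the labels. Shares of sites were compared by two-sided exact permutation or sign-flip tests, and promoter counts with edgeR 4.0.16 (R 4.3.3, TMM, alternative DESeq2 1.42.0), after tests on simulated data. Other steps used Python 3.11.15. Named genes were those of the 10 strongest sites, the 10 genes nearest to most sites, listed genes (up to 3 per list by sites, further ones chosen after their values were seen) and the 5 largest changes each way in the promoter test without overlap. The members and gene lists were chosen with earlier results of these data known.

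Animal tags in the deposited names tie 9 mice to both tissues. The label numbers are the same mouse in both tissues for 1 to 4 only. Deviations of promoter counts from the tissue mean correlated with a median r of 0.06 over the 9 pairs of one mouse (range -0.11 to 0.14), and the tests above leave the pairing out. The names of gastrocnemius files state that reads were uniquely mapped and properly paired, and those of cortex do not, so tissue and this possible difference in filtering cannot be told apart.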

Additional observations from a re-analysis of the deposited data

Results flagged for a closer look

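Among 47 groups of libraries, 2 held a library far from the rest, and chance alone gives about 1 in 20. Gastrocnemius 5 had H3K27me3 at the promoters of 59.9% of the nearest genes, against a group median of 50.3%, and is the deepest H3K27me3 library (18236388 fragments). At Elmo1_6 the cortex 9 library, the shallowest for H3K27ac, had 5.74 RPM per kb, against a group median of 4.28.

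The difference between cortex-only distal sites and the other sets depended on the tissue (exact permutation test of the within-library differences, p = 1.08e-05 for each of 4 tests, adjusted 1.08e-05). For H3K4me3, the difference from sites of both tissues was -12.55 ± 0.755 percentage points in cortex and -43.89 ± 5.97 in gastrocnemius, 31.34 apart, and that from gastrocnemius-only sites was 13.45 and -19.10, 32.54 apart. For H3K27me3 the corresponding tissue differences were -35.91 and -61.42 points. The sets were themselves chosen on H3K27ac in these tissues.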

How the results depend on the processing

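Among the recomputed values of the main results, 306 kept their direction and call, 4 kept their direction but lost the call, and 1 count moved by over 1.5 times. For differences this tally does not weigh size, and some became much smaller, as given below. The number of sites rose to 4991 when a peak in 8 of 9 cortex libraries was enough, and leaving out 1 library gave 3073 to 4565, the latter without the shallow cortex 9. It was 2246 without the weakest 25% of peaks, 2858 and 3175 with distances of 10 and 1 kb from a TSS, and 4549 when a gastrocnemius peak had to cover at least 50% of a region to remove it. With sites chosen without cortex 9, an alternative added after seeing the data, the differences were 12.45 points for H3K4me3 and -30.31 for H3K27me3 at the sites. Among the 2 cortex and 4 gastrocnemius libraries with an extra number in their file names the differences were 17.63 and -39.73 points at the sites and 10.20 and -24.57 at nearest promoters, where the exact permutation test cannot go below p = 0.0667. Leaving out each library gave 12.22 to 13.42 and -35.42 to -32.92 points at the sites, 8.61 to 9.06 and -22.93 to -21.42 at promoters, and 830 to 843 called promoter sites.

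With the replicate block by animal tag the differences were 12.71 and -32.92 points at the sites and 837 promoter sites were called, and by label number 12.81, -34.23 and 832. Neither block changed a call among the results named here. DESeq2 called 837 promoter sites.

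The H3K4me3 difference at the sites was smaller under stricter overlap and peak filters: 2.14 points where peaks had to cover at least 50% of a site, 2.40 as the share of base pairs covered, and 5.43 without the weakest 25% of peaks. For H3K27me3 the 50% rule gave -28.64 points between the tissues. In cortex it gave -12.90 points from the gastrocnemius-only sites and 3.18 from the sites of both tissues. In gastrocnemius these were 33.18 and 31.95. Fragments outside peaks were not analysed here, so a site without a peak may still hold signal below the threshold of its library, above all in the shallow ones.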
